A study of Mus musculus with 4 samples.

Results

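Oncofetal and tumour-associated liver genes are genes that the foetal liver expresses and the adult liver largely silences, or that are often raised in liver tumours and injured liver. The set examined here held 9 gene symbols (Afp, Gpc3, Ly6d, Tspan8, H19, Igf2, Igf2bp3, Golm1 and Cd44) and was assembled by name. For 8 of the 9 the arrays had 1 row that names the gene alone, among 22180 genes measured in this way. The only row that names H19 names the microRNA gene Mir675 as well, which is carried in the H19 transcript, so H19 was not analysed here.

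Liver RNA came from wild-type males of the inbred strain C57BL/6J. From 6 weeks of age they ate, for 20 weeks, either a normal diet or one that lacks methionine and choline (the MCD diet). Each diet had 2 samples on 2 gene-level arrays, and the labels do not say whether a sample is 1 animal or a pool. P-values therefore measure the spread between these samples. Without choline the liver makes too little phosphatidylcholine to export its fat, and the MCD diet is used to produce fatty liver with inflammation and scarring.

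Alpha-fetoprotein (Afp) is the main plasma protein of the foetus and a serum marker of hepatocellular carcinoma. After birth its gene is repressed in hepatocytes, together with those of the proteoglycan Gpc3 and the non-coding RNA H19, in part through the repressors Zhx2 and Zbtb20. The growth factor Igf2 and the RNA-binding protein Igf2bp3 are likewise products of foetal tissue, whereas Golm1, Cd44, Tspan8 and Ly6d are membrane proteins that are sparse in normal adult hepatocytes and are found in injured or malignant epithelium or in other cells of the organ.

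Values are the authors' log2 signals, and a difference is the mean of the MCD diet arrays minus the mean of the normal diet arrays. A difference of 1 is a doubling, and ± is the standard error of the difference in limma, a linear model with a spread shared across genes (n = 2 arrays per diet). A gene was called when its p-value, adjusted over all 22180 genes by the Benjamini-Hochberg method, was under 0.05. Median signals of the arrays were 2.57 to 2.65. The hepatocyte marker genes fixed for this work, among them Alb, the gene of albumin, and Apoa1, were bright on every array. Their mean was 11.2 to 11.5, so the arrays carry the labelled tissue. Of these 9 markers 0 were called higher and 1 lower. That was Apoa1 (-0.50 ± 0.12, limma adjusted p = 0.0493), a call that quantile normalization ended. At an unadjusted limma p under 0.05 the counts were 0 and 3.

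Promoter windows of the members are shown first, because those of the genes that rose differ in CpG content. The RefSeq promoter table of build GRCm38.p6 holds windows of 300 bases, from 250 before to 50 after a transcript start, for 7 of the 9 genes. Ly6d, which rose most, and H19 have no window there. Afp and Tspan8, whose transcripts rose, have windows with 3 and 5 CpG dinucleotides, against a median of 7 over 32851 windows. These numbers are above those of 23.3% and 38.0% of all windows. The windows of Golm1 and Gpc3 each hold 30, a number above that of 88.3% of all windows. Golm1 was called, the only called gene with a window above the median, and Gpc3 was not. Capitals mark matches, on either strand, to 10 short motifs. Those of the core promoter were the TATA box (letters TATAAA), the CCAAT box (as spelled) and the GC box (letters GGGCGG). Those named for signal-responsive factors were AP-1 (letters TGANTCA, in 7.81% of windows), TEAD (letters GGAATG, in 14.7%) and TCF/LEF (letters CTTTGA). Those named for liver factors were FOXA (letters TGTTTAC), C/EBP (letters TTGCNNAA), part of an HNF1 site (letters GTTAAT) and NR5A2 (letters AAGGTCA, in 4.72%). The windows are those at chr5:90490464-90490763 (plus strand) for Afp, chr10:115817034-115817333 (plus strand) for Tspan8, chr13:59675735-59676034 (minus strand) for Golm1 and chrX:52613925-52614224 (minus strand) for Gpc3, each written 5′ to 3′ on the strand of its gene.
Afp: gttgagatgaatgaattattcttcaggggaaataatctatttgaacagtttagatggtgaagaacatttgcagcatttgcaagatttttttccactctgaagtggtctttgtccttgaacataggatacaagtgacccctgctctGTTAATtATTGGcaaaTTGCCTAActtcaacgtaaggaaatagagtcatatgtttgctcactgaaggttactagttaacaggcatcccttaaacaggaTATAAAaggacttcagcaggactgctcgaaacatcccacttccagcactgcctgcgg
Tspan8: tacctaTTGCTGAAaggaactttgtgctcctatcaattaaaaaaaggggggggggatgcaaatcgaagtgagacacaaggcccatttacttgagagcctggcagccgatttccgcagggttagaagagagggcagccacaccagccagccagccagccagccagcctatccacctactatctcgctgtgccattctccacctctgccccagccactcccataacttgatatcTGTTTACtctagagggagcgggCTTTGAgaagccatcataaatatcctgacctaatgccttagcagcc
Golm1: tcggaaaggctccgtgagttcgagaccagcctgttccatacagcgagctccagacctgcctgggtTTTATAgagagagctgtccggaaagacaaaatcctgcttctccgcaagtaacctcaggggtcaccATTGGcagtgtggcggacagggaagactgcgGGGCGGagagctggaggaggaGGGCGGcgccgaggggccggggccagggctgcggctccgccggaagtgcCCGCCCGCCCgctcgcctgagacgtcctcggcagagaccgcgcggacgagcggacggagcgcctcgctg
Gpc3: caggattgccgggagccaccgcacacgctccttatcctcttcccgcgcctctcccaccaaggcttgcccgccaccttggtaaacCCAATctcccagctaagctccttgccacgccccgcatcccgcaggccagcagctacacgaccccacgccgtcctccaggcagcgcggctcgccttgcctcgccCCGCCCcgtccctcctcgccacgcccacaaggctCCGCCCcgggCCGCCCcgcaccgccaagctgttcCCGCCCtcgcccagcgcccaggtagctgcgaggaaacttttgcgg

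The Afp window has a TATA box match starting at -7 from the annotated start, the HNF1 letters at -105, a CCAAT match on the other strand at -98 and a C/EBP match at -89. Of all windows, 13.6% hold a TATA box match, 7.10% the HNF1 letters, 37.4% a CCAAT match and 10.8% a C/EBP match. The Tspan8 window holds a FOXA match at -18 a C/EBP match at -244 and a TCF/LEF match at 5, a motif found in 16% of windows. FOXA matches are rarer, in 3.65% of windows. Golm1 and Gpc3 carry 4 GC box matches each, and 35.7% of windows hold at least 1. In Golm1 2 of the 4 overlap, and it also has a TATA box match on the other strand, at -185. Cd44 has 6 CpG dinucleotides and a GC box match at 4, and Igf2bp3 has 25. The 4 Igf2 windows range from 2 to 24 CpG dinucleotides. A match describes these letters and does not show that a factor binds there.

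Of the 8 measured genes, 5 rose and 0 fell in the livers of mice on the MCD diet. They were Ly6d, Tspan8, Afp, Cd44 and Golm1, with rises from 2.37-fold to 16.6-fold. Gpc3 was higher on both MCD diet arrays but did not pass the test, and Igf2 and Igf2bp3 did not pass either. Over all genes tested 9.98% were called, 6.37% higher and 3.62% lower. At an unadjusted limma p under 0.05, 6 of the 8 were higher and 0 lower. The median difference of the 8 was 1.69, against -0.03 over all genes. In 6 of the 8 both MCD diet arrays lay above both normal diet arrays, which held for 25.0% of all genes, and in Igf2bp3 both lay below, which held for 29.2% of all genes. The genes had been picked with results of these arrays known, so their counts are a description. All 8 entered the test, since no filter on dim genes was applied.

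**Figure D1:**
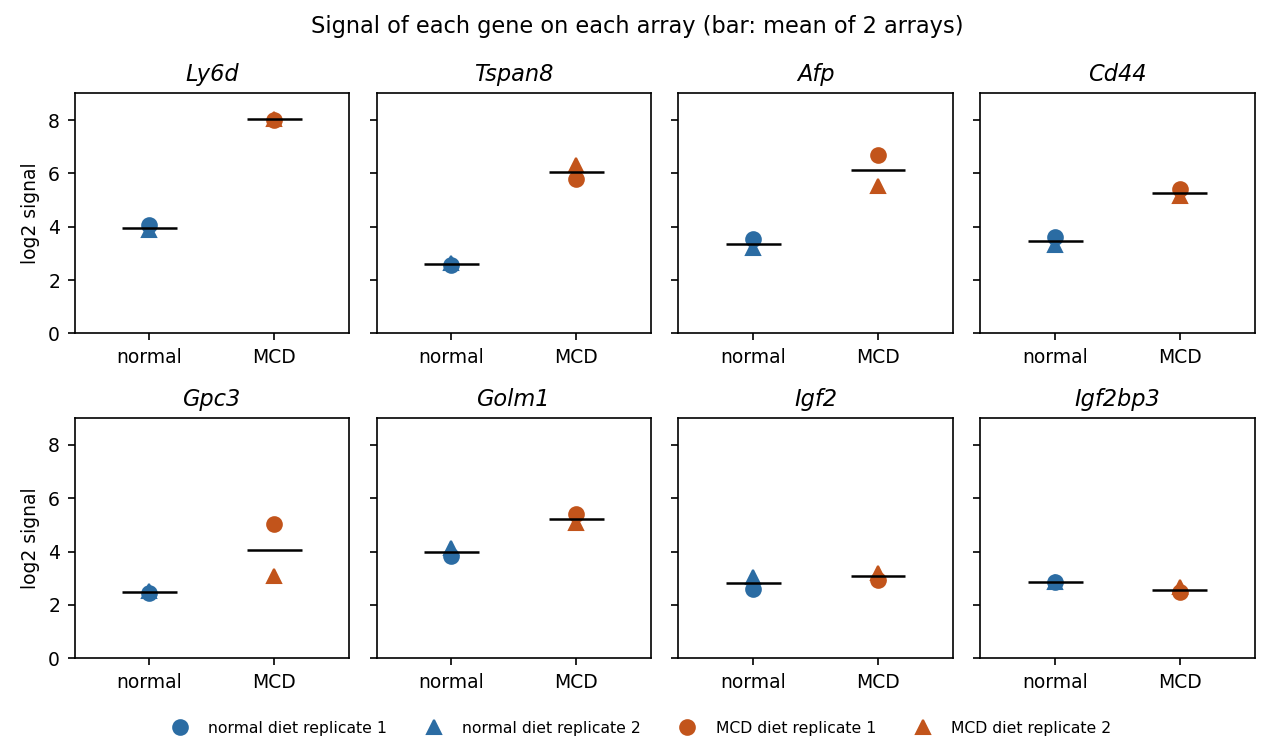
Log2 signal (vertical axis, same scale in each panel) of each gene on the 4 arrays, with normal diet arrays in blue, MCD diet arrays in orange, circles for replicate 1, triangles for replicate 2 and a bar at each mean. The MCD diet arrays of Ly6d both lie near 8.0, while those of Gpc3 stand apart at 5.03 and 3.07.

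Afp, the foetal serum protein gene, had normal diet signals of 3.53 and 3.22 and MCD diet signals of 6.71 and 5.52. Both MCD diet arrays were above both normal diet arrays, and the 2 MCD diet arrays differed from each other by 1.19. Afp rose by 2.74 ± 0.37 (6.69-fold; limma adjusted p = 0.00907), and its 95% interval ran from 1.83 to 3.65. Of all genes tested, 73 had an MCD diet gap at least as wide. The rise was 3.34 without MCD diet replicate 2 and 2.15 without MCD diet replicate 1, and was called in both. Its 2 measured relatives on the albumin family list, which lie beside it on the chromosome, did not rise. Gc, the other gene of that list, was not among the genes measured. Alb differed by -0.04 ± 0.12 (limma adjusted p = 0.875), at signals of 11.93 to 12.04, near the top of the scale. Afm, the vitamin E binding protein gene next to Afp, differed by -0.72 ± 0.18 without passing (limma adjusted p = 0.0616). With each array centred on its median, without the dimmest 50% of genes or with an intensity trend, 1 of these 2 relatives was called lower. Albfm1, 2 genes from Afp and outside the list, differed by -0.94 ± 0.24 without a call (limma adjusted p = 0.0675).

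Of 18 measured regulators of Afp and of hepatocyte transcription 0 were called higher and 6 were called lower, with a median difference of -0.41. At an unadjusted limma p under 0.05 these counts were 0 and 9. The shares called over all genes tested were 6.37% higher and 3.62% lower. The postnatal repressor Zhx2 had signals of 6.25 and 6.10 in normal diet livers and 5.47 and 5.61 in MCD diet livers. It fell by 0.64 ± 0.13 (limma adjusted p = 0.0341), with no overlap between the diets. Zbtb20, another known repressor, differed by -0.21 ± 0.15 and was not called (limma adjusted p = 0.469). Zfhx3, of the same list, differed by -0.14 ± 0.13 without a call (limma adjusted p = 0.565). Nr5a2, a nuclear receptor that activates Afp, fell by 0.57 ± 0.13 (limma adjusted p = 0.0492). The largest fall was that of Onecut1, a liver-enriched homeobox factor (-1.78 ± 0.20), followed by the forkhead factor Foxa3 (-1.08 ± 0.20), Cebpa (-0.86 ± 0.15) and Foxa1 (-0.70 ± 0.13). The number called lower dropped to between 1 and 3 when 1 array was left out and to 3 with a replicate block. Of those named, Onecut1 kept its call under all 12 alternatives, while Zhx2 and Nr5a2 lost theirs without any 1 of the 4 arrays. Foxa3, Cebpa and Foxa1 each lost theirs under some of the alternatives.

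Gpc3, a glypican of foetal liver that is anchored to the cell surface and carries heparan sulfate, read 2.44 and 2.51 in normal diet livers. The MCD diet arrays read 5.03 in replicate 1 and 3.07 in replicate 2. Both were above the normal diet arrays, yet they lay 1.95 apart, a gap that 12 genes including Gpc3 itself reach or exceed. The difference of 1.58 ± 0.57 (2.98-fold) did not pass (limma adjusted p = 0.161). It was 2.55 ± 0.15 without MCD diet replicate 2, which was called (limma adjusted p = 0.00331), and 0.60 without MCD diet replicate 1, which was not (limma adjusted p = 0.117). MCD diet replicate 1, the higher array for Gpc3 and Afp, also had the higher summed linear signal of 10 macrophage markers (2476 against 1779, with 319 to 322 in normal diet livers) and of 8 neutrophil markers (77.3 against 46.4, with 35.2 to 36.5). Of the neutrophil markers 1 was called higher, and 5 were without MCD diet replicate 2. The neutrophil marker Ngp read 4.47 in MCD diet replicate 1 and 2.22 in replicate 2. Summed signals of other marker lists went either way between these arrays. They were 392 against 383 for bile duct cells and 516 against 601 for stellate cells and myofibroblasts. Onecut2, which is also in the list of hepatocyte regulators, was the brightest bile duct marker on these arrays (7.20 and 7.04). The order of the bile duct sums leans on that gene. For intestine the sums were 149 against 190, with 156 and 267 in normal diet livers. Fabp2, the brightest gene of the intestine list, read 6.23 and 6.70 on the MCD diet arrays. The part of any of these cell types in the Gpc3 and Afp values was not tested.

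Of 9 other measured glypicans and syndecans, the cell-surface heparan sulfate proteoglycans, 1 rose and 2 fell, with a median of -0.04. Gpc1 rose by 1.19 ± 0.19 (limma adjusted p = 0.0164), from 3.75 and 4.28 to 5.25 and 5.18. Gpc4, the neighbour of Gpc3 on the X chromosome, fell by 0.57 ± 0.12 (limma adjusted p = 0.0343). The differences of Gpc2, Gpc5 and Gpc6 were 0.08, 0.12 and -0.39, and none of the 3 was called. Sdc4, a syndecan of hepatocytes, fell by 1.11 ± 0.12 (limma adjusted p = 0.00433). The calls of Gpc1 (without either MCD diet array) and Gpc4 (without any 1 of the 4 arrays) were lost, and that of Sdc4 was not. Among 16 measured enzymes that build or edit heparan sulfate 3 rose and 2 fell (median 0.02). Heparanase (Hpse), which cuts the chains, rose by 1.24 ± 0.13, the sulfatase Sulf1 rose by 0.82 ± 0.12 and its relative Sulf2 fell by 0.84 ± 0.14. The sulfotransferase gene Hs6st1 fell by 0.62 ± 0.13 (limma adjusted p = 0.0401), a call that quantile normalization, the replicate block and each left-out array ended. Without 1 array these counts were 1 to 2 higher and 0 to 1 lower, and Sulf1 and Sulf2 each lost their call in 3 of the 4 cases, whereas Hpse kept it.

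**Figure D2:**
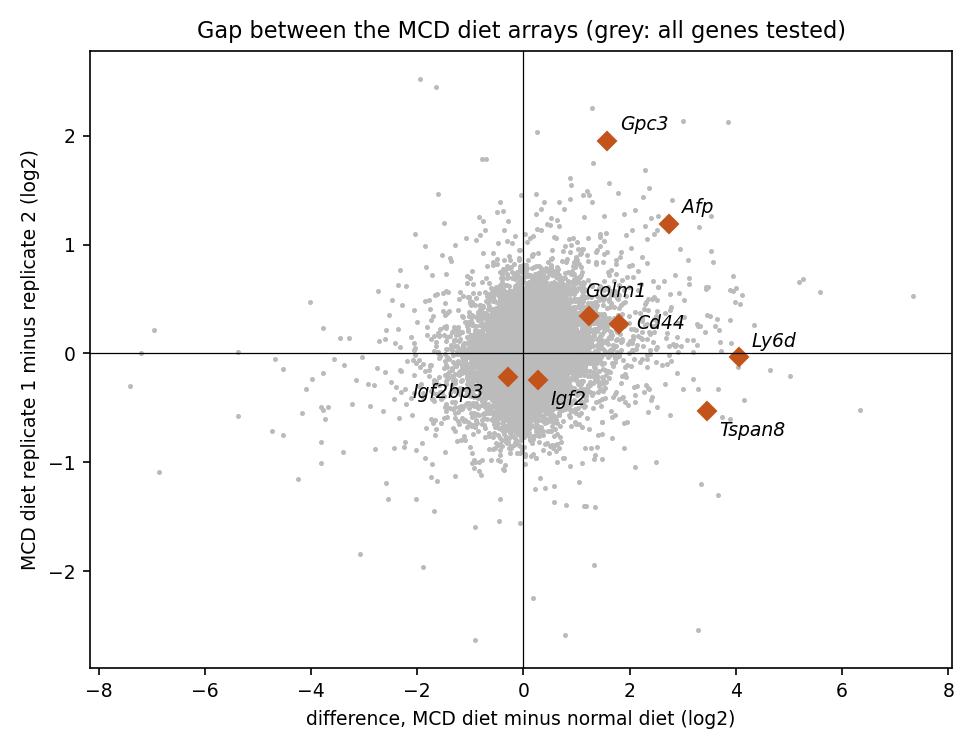
Each point is a gene, with the difference between diets (log2) on the horizontal axis and MCD diet replicate 1 minus replicate 2 (log2) on the vertical axis; grey points are the 22180 genes tested and orange diamonds the 8 genes described. Gpc3 (1.95) and Afp (1.19) sit high above the zero line of the vertical axis, and Ly6d (-0.03) lies on it.

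Ly6d gave the largest difference of the set. It encodes a small protein tethered to the membrane by a lipid anchor, known from squamous epithelium and from early B cells. Signals were 4.06 and 3.89 in normal diet livers and reached 8.01 and 8.05 in MCD diet livers. The MCD diet arrays were nearly identical and far above the others. The rise was 4.06 ± 0.13 (16.6-fold; limma adjusted p = 0.000167; 95% interval 3.75 to 4.37), rank 12 of all genes by signed difference. Left-out arrays moved it only between 3.97 and 4.14.

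The other Ly6 and uPAR domain genes stayed far from that size. Of 27 measured, 3 rose and 2 fell, with a median of -0.02 and differences between -0.62 and 1.15. Ly6e, an interferon-inducible member, rose by 1.15 ± 0.17, the monocyte antigen gene Ly6c2 by 1.11 ± 0.21 and the urokinase receptor gene Plaur by 1.02 ± 0.23. Cd59a, an inhibitor of complement lysis, fell by 0.62 ± 0.12. With 1 array left out 0 genes of the list were called lower. The number called higher was then 1 for each normal diet array, 0 for MCD diet replicate 1 and 3 for MCD diet replicate 2. Near-identical copies in the Ly6 family, Ly6c2 among them, may share probe signal. Nearby genes on the chromosome did not follow Ly6d, with differences of 0.37 for Lynx1, -0.18 for Slurp2, 0.02 for Ly6g6g and 0.11 for Ly6k, none called.

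Of 9 measured B lineage markers 1 was called higher and 0 lower, with a median of -0.08, and the summed linear signal was 49.6 to 52.2 in normal diet livers and 53.9 to 60.7 in MCD diet livers. At an unadjusted limma p under 0.05 the counts were 1 higher and 1 lower. Cd79a, lower on both MCD diet arrays, differed by -0.48 ± 0.12 without a call (limma adjusted p = 0.0664). The markers of early B cells, Vpreb1, Vpreb3, Pax5 and Ebf1, differed by -0.19, 0.03, -0.17 and 0.17. None of the 4 exceeded a signal of 2.27 on any array, below the median of every array. The called marker was Jchain, of antibody-secreting cells (1.36 ± 0.31, limma adjusted p = 0.0463), and its call was lost under both scaling alternatives and in 3 of the 4 fits with an array left out, the exception being MCD diet replicate 2. In these whole-tissue samples a change in the number of cells of a type and a change in RNA per cell cannot be told apart.

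Tspan8 encodes a tetraspanin, a membrane protein with 4 spans, of gut and biliary epithelium. Its signals were 2.57 and 2.66 in normal diet livers, at about the array median, and 5.80 and 6.33 in MCD diet livers. Both MCD diet arrays lay well above both others. Tspan8 rose by 3.45 ± 0.19 (10.9-fold; limma adjusted p = 0.000601; 95% interval 2.98 to 3.92), rank 37 of all genes. Leaving out 1 array gave 3.18 to 3.71. Near it on the chromosome, the stem cell receptor gene Lgr5, 2 genes away, differed by 0.62 ± 0.17 without a call (limma adjusted p = 0.0800). The adjacent genes A930009A15Rik and Ptprr differed by -0.02 and 0.02.

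Among 29 other measured tetraspanins 6 rose and 2 fell (median 0.08, range -0.87 to 2.67). The largest rises were those of the leukocyte tetraspanin Cd53 (2.67 ± 0.17), the late endosome protein Cd63 (2.52 ± 0.19), Cd9 (1.63 ± 0.12) and the leukocyte gene Cd37 (1.10 ± 0.13). These 4 kept their calls under all 12 alternatives. The number called lower was 1 without normal diet replicate 1 and 0 without any other 1 of the arrays.

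Of 10 measured markers of bile duct cells 6 rose, 0 fell and 4 were not called, with a median of 0.78. Their summed linear signal was 221 to 224 on the normal diet arrays and 383 to 392 on the MCD diet arrays. Onecut2, the brightest marker of the list on every array, read 7.01 and 7.11 in normal diet livers and 7.20 and 7.04 in MCD diet livers. It differed by 0.05 ± 0.13 and was not called. The sums lean on Onecut2, so their relative rise is smaller than it would be without that gene. Epcam rose by 2.35 ± 0.19 and Pkhd1, the fibrocystin gene of the bile duct cilium, by 2.19 ± 0.20. The keratins Krt7 and Krt19 rose by 0.79 ± 0.12 and 0.78 ± 0.14 but were dim, with MCD diet signals of 2.89 to 3.17. Without replicate 1 of the normal diet or replicate 1 of the MCD diet the number called was 3. Sctr, the secretin receptor gene, differed by -0.08. Intestine markers gave 0 called of 9 in limma (1 without replicate 2 of the normal diet or replicate 1 of the MCD diet) and pancreas markers 0 of 6. At an unadjusted p under 0.05 the counts were 2 and 0. The part of bile duct cells in the Tspan8 value was not tested.

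**Figure D3:**
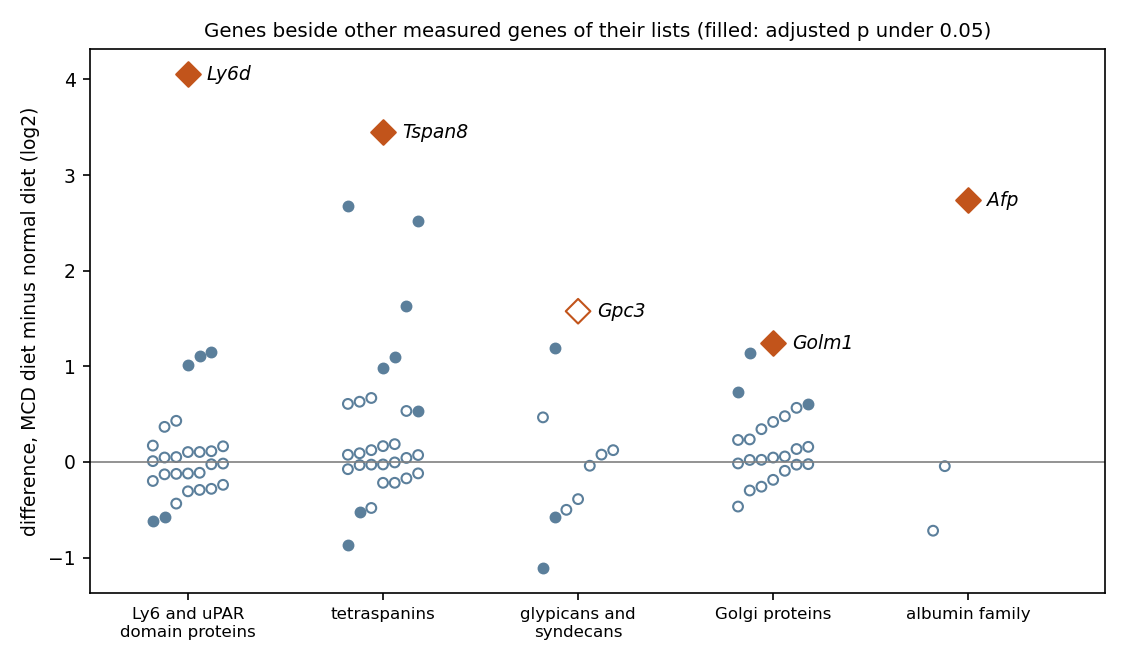
Difference between diets (log2, vertical axis) of 5 genes (orange diamonds) beside the other measured genes of their family or list (blue circles), filled where adjusted p was under 0.05. Ly6d at 4.06 lies above the other Ly6 and uPAR domain genes, which reach 1.15, and Tspan8 at 3.45 above the other tetraspanins, which reach 2.67.

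Cd44 encodes the main cell-surface receptor for hyaluronan, present on leukocytes and on activated epithelium. Normal diet livers read 3.62 and 3.31, and MCD diet livers 5.41 and 5.14, without overlap. Cd44 rose by 1.81 ± 0.16 (3.49-fold; limma adjusted p = 0.00264; 95% interval 1.40 to 2.21). The value was 1.65 to 1.96 with 1 array left out.

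Of 24 measured ligands and partners of Cd44, 6 rose and 1 fell (median -0.02). Over all genes tested 6.37% were called higher and 3.62% lower. Ezr and Msn, which tie Cd44 to the actin skeleton, rose by 1.54 ± 0.20 and 1.52 ± 0.18, whereas the third protein of that family, Rdx, differed by -0.16. Hgf, the growth factor that Cd44 helps to present to its receptor Met, rose by 1.53 ± 0.16, and Met itself differed by -0.10. Mmp14, one of the proteases that can shed Cd44, rose by 1.28 ± 0.22. The hyaluronan synthases Has1, Has2 and Has3 had signals of at most 2.90 and were not called. The splicing regulator Esrp2, which governs epithelial isoforms of Cd44, differed by -0.15 ± 0.15 (limma adjusted p = 0.612). Its paralogue Esrp1 rose by 0.71 ± 0.16 (limma adjusted p = 0.0459), from 2.13 and 2.44 to 2.88 and 3.10, and lost its call without any 1 of the arrays and with the arrays centred on their medians. Stab2, the hyaluronan scavenger of the liver sinusoid, fell by 0.82 ± 0.15. Without MCD diet replicate 1 there were 2 rises and 0 falls, and Ezr and Mmp14 were no longer called. Mmp14 also lost its call without MCD diet replicate 2, and Stab2 without replicate 1 of the normal diet or any MCD diet array. Hgf and Msn kept theirs.

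Of 10 measured macrophage markers 8 rose and 1 fell, with a median of 2.08. The summed linear signal was 319 to 322 in normal diet livers and 1779 to 2476 in MCD diet livers. Cd68 rose by 3.43 ± 0.24 and Lyz2 by 2.46 ± 0.14, while Clec4f, a lectin of resident Kupffer cells, fell by 1.66 ± 0.19. T and NK cell markers gave 0 calls of 7 in limma (2 higher and 1 lower at an unadjusted p under 0.05; median 0.25), with 1 called higher without replicate 1 of the normal diet or replicate 1 of the MCD diet. Stellate cell and myofibroblast markers gave 4 rises and 0 falls of 10 (median 0.71), and 2 rises without replicate 2 of the normal diet or replicate 2 of the MCD diet. The part of these cells in the Cd44 value was not tested.

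Golm1, a Golgi membrane protein that is cut and released into serum in liver disease, showed the smallest of the 5 rises. The normal diet arrays gave 3.83 and 4.14 and the MCD diet arrays 5.40 and 5.06. The diets did not overlap. Golm1 rose by 1.24 ± 0.18 (2.37-fold; limma adjusted p = 0.0103; 95% interval 0.81 to 1.67). Without MCD diet replicate 1 it was 1.07 and just missed the threshold (limma adjusted p = 0.0501).

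Most other Golgi genes did not pass. Of 23 measured, 3 rose and 0 fell in limma (6 and 1 at an unadjusted p under 0.05), with a median of 0.06. Its closest relative Golm2 rose by 1.14 ± 0.16 (limma adjusted p = 0.00977), and Golim4 and Golph3l by 0.73 ± 0.13 and 0.60 ± 0.13. Without any 1 of the arrays only Golm2 was still called among the 3. Furin, a protease that cleaves Golm1, differed by -0.09 ± 0.12.

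Igf2, the foetal insulin-like growth factor, gave 2.58 and 3.03 in normal diet livers and 2.95 and 3.20 in MCD diet livers. The diets overlapped. Its difference was 0.27 ± 0.19 (limma adjusted p = 0.459), with an interval from -0.19 to 0.72. Leaving out replicate 1 of the normal diet gave 0.04, replicate 2 of the same diet 0.49 and MCD diet replicate 2 0.14, and none of these values was called. A change larger than 0.72 thus lies outside the interval, although this signal is near the array median, where a weak transcript may not register.

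Of 19 measured genes of the IGF axis 4 rose, 3 fell and 12 were not called (median 0.07). Igf1r, the signalling receptor, rose by 1.71 ± 0.12, from 2.77 and 2.74 to 4.46 and 4.47. Igf2r, which clears Igf2, rose by 0.77 ± 0.13 (limma adjusted p = 0.0170). The binding protein gene Igfbp7 rose by 1.15 ± 0.12 (limma adjusted p = 0.00382) and Igfbp6 by 0.69 ± 0.13 (limma adjusted p = 0.0268). With 1 array left out Igfbp6 gave 0.60 to 0.77, and a replicate block ended its call. The carriers Igfbp1 to Igfbp5 and the insulin receptor gene Insr were not called. Igfbp1 varied widely within a diet, with 8.16 and 6.05 in normal diet livers and 8.38 and 6.35 in MCD diet livers. Igfals, the subunit that holds IGF in plasma complexes, fell by 2.25 ± 0.29, the growth hormone receptor gene Ghr by 1.70 ± 0.23 and Igf1 by 0.70 ± 0.13 (limma adjusted p = 0.0271). Igf1 lost its call without any 1 of the arrays, and Igf2r in all such fits except that without MCD diet replicate 2. The rises were 2 without replicate 2 of the normal diet or replicate 1 of the MCD diet.

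Of 20 other measured imprinted growth genes 4 rose and 1 fell (median 0.12). The non-coding RNA gene Rian rose by 2.35 ± 0.26 (limma adjusted p = 0.00488), from 3.78 and 3.06 to 5.97 and 5.57, and kept its call under all 12 alternatives. Meg3 and Dlk1, of the same imprinted cluster, differed by -0.18 and -0.11. Grb10, an inhibitor of insulin and IGF receptors, rose by 0.98 ± 0.22, the sarcoglycan gene Sgce by 0.73 ± 0.17, and the amino acid transporter gene Slc38a4 fell by 0.66 ± 0.12. Quantile normalization ended all 3 of these calls. Without 1 array Slc38a4 and Sgce were never called, and Grb10 was called only with MCD diet replicate 2 left out. Rises in the list numbered 1 to 3 in those fits, 1 without replicate 1 of the normal diet or replicate 1 of the MCD diet.

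Igf2bp3, an RNA-binding protein that stabilises foetal growth transcripts, read 2.87 and 2.85 in normal diet livers, against 2.47 and 2.68 in MCD diet livers. Both MCD diet values were lower, by a small margin. The difference of -0.29 ± 0.13 did not pass (limma adjusted p = 0.258; interval -0.61 to 0.04). It was -0.18 without MCD diet replicate 1 and -0.39 without MCD diet replicate 2, with no call in either. Among 8 measured genes of the Lin28 and let-7 axis 0 were called in limma (0 higher and 1 lower at an unadjusted p under 0.05), with a median of -0.09. The largest differences were those of Nr6a1 (-0.51 ± 0.13, limma adjusted p = 0.0635) and Dis3l2 (0.22 ± 0.14). 1 gene of the list was called lower under quantile normalization and under median centring. The foetal RNA-binding regulators Lin28a and Lin28b had signals of 1.58 to 2.65 over the 4 arrays, with no call.

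**Figure D4:**
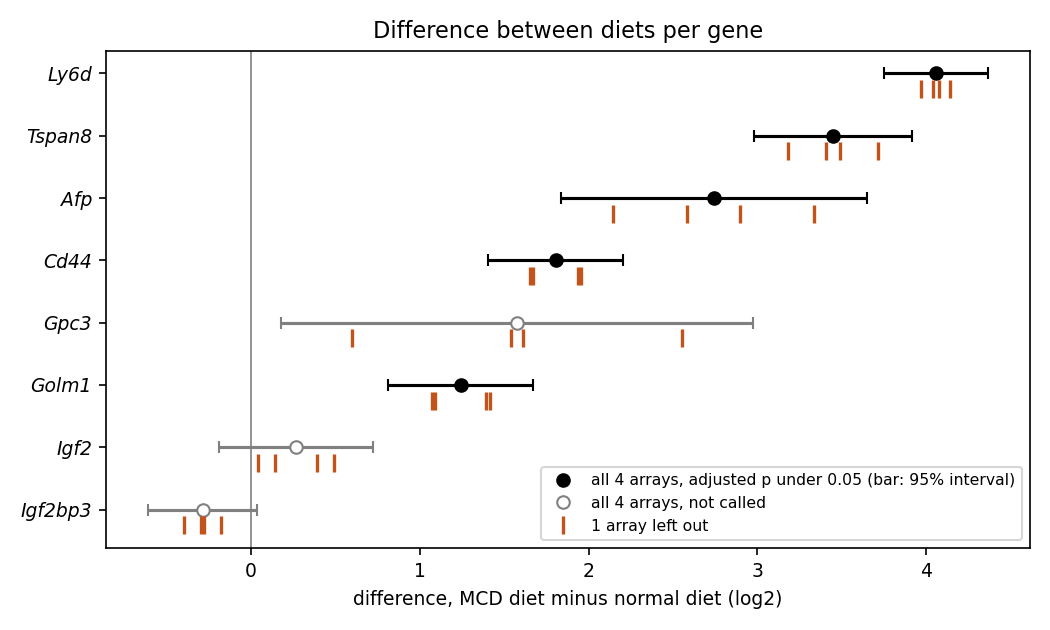
Difference between diets (log2, horizontal axis) for each gene; filled black points were called, open grey points were not, bars are 95% intervals before adjustment for the number of genes, and orange ticks give the value with 1 array left out. The interval of Gpc3 runs from 0.18 to 2.98, and its ticks spread from 0.60 to 2.55.

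Other genes used as markers of liver tumours or progenitor cells rose more often than not. Of 29 measured, 17 rose and 0 fell in limma (19 and 0 at an unadjusted p under 0.05), with a median of 0.80. Over all genes tested 6.37% were called higher and 3.62% lower. The list was chosen with earlier results of these data known, so its counts are a description. Akr1c18, a steroid-reducing enzyme, rose by 5.20 ± 0.26, the lipocalin gene Lcn2 by 3.91 ± 0.22, the surface glycoprotein gene Cd24a by 3.12 ± 0.27 and Epcam by 2.35 ± 0.19. These 4 kept their calls under all 12 alternatives. Epcam, Sox9, Krt7 and Krt19, all called, are in the list of bile duct markers too, so the counts of the 2 lists overlap. Without 1 array 12 to 13 genes of the list were called higher. Tff3, Mdk and Dlk1, of the same list, differed by -0.07, -0.30 and -0.11.

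The genes whose values over the 4 arrays were nearest to those of Ly6d, once each gene's mean was subtracted, were the carbonic anhydrase gene Car2, the pattern receptor gene Clec7a and Sytl5, at distances of 0.34, 0.38 and 0.40 on the log2 scale. For Tspan8 they were the sulfotransferase gene Sult2a2, Tinag and Cyp2a22, at 0.28, 0.33 and 0.39. With 4 arrays these distances describe little more than the size of the rise. Sult2a2 and Cyp2a22 belong to families with near-identical copies, so their signals are uncertain.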

How the data were processed

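Liver RNA was measured on Mouse Gene 2.1 ST arrays, per the labels. The deposited values, 1 per transcript row, come, per the submitters' processing notes, from Transcriptome Analysis Console. Its version, background correction and normalization: not given in the sources used here. They were read as log2 signals deposited by the authors, a base inferred from their maximum of 12.1. Of 34472 rows, 23521 name 1 gene, 1814 several and 9137 none in the platform annotation. RefSeq (GRCm38.p6, names alone) held 23328 of the 23521 and updated 0 symbols. Per gene the row with the highest mean over the arrays was used, and each member had a single row. Unused columns of per-sample values numbered 0.

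Diets were compared with limma 3.58.1 in R 4.3.3 on all 4 arrays, without a block, a filter or a pseudocount, after the script was tested on simulated data. Array number limits precision, and detection values were not analysed here. The members, the 12 gene lists and the 12 marker lists were chosen with earlier results of these data known. Named were the members, in each list the called genes with the largest differences, up to 4 (where none was called, 2 genes), the measured glypicans and albumin family, and Alb, Zhx2, Zbtb20, Nr5a2, Igf2r, Igf1 and Esrp2 always; a further gene of that set and 2 of the 3 IGF2 mRNA binding proteins were not analysed here. Genes named beyond this rule (neighbours on the chromosome, cell type markers, further genes of the lists) were chosen after their values were seen. Marker signals were summed as 2 to the power of the log2 value. Alternatives were quantile normalization, median centring, an intensity trend, removal of the dimmest 25% or 50% of genes, the mean of a gene's rows, all rows, a replicate block and each array left out.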

Additional observations from a re-analysis of the deposited data

How the results depend on the processing

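Of 94 values of the 8 genes under the alternatives, all kept their direction and 92 their side of the threshold. The exceptions are Gpc3 without MCD diet replicate 2 (2.55, now called) and Golm1 without MCD diet replicate 1 (1.07, no longer called). With 1 array left out Gpc3 ranged from 0.60 to 2.55 and Golm1 from 1.07 to 1.41. Such fits leave 1 array in a diet, which is assumed to vary like the other diet. Igf2 and Igf2bp3 were not in the test without the dimmest 50% of genes. Over all genes the number called higher was 1412, and 688 to 1011 with 1 array left out; the number called lower was 802, and 362 to 482. The replicate block changed no call among the 8 genes (Afp adjusted p = 0.00590, Golm1 adjusted p = 0.0248). The labels do not say what the numbers share, and deviations of same-numbered arrays correlated at 0.05 across genes. The list alternatives were added after the data were seen: 479 of 576 list counts stayed equal or within 1.5 times, and 37 of 86 called genes of the lists and marker lists kept their call under all 12 alternatives. Centring on array medians moved the median of all genes from -0.03 to -0.10, and no member changed its call or direction. Signal over background was not analysed here, so sizes of rises from dim signals, such as that of Tspan8, are uncertain.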
